A study of Mus musculus with 12 samples.

Results

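Mogs and Tm7sf2 encode enzymes of the endoplasmic reticulum, and both read lower on hippocampal arrays of mice lacking CREB and CREM than on arrays of control mice. These are 2 of the 5928 gene symbols on the array, and their probe sets are 3 of the 11868 that are not array controls: all probe sets whose platform symbol is Mogs (older name Gcs1) or Tm7sf2 were taken. Mogs has 2 of them and Tm7sf2 has 1. The genes were chosen from the values analysed here, the log2 levels on these same arrays, with results of the genotype and kainate comparisons already known, so each difference of Mogs and Tm7sf2 below is a description, given with its standard error (SE) and with no test.

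The study asked how the loss of CREB and CREM changes the hippocampal response to kainate, an agonist of glutamate receptors that provokes seizures. Hippocampal RNA was read on the third array type of the Affymetrix mouse U74 set, on 12 arrays in 4 groups of 3. The groups were mutant mice given kainate (20 mg/kg, intraperitoneal), mutant mice given saline, control mice given kainate and control mice given saline, all killed 1 hour after the injection. Littermates of both sexes, 5 to 6 weeks old, were used, with 5 days of handling in every group. RNA of 3 animals was pooled for each array, so the spread between arrays is a spread between pools. For the mutant and control mice, the sources used here do not give the alleles or the cells in which a gene was removed. In whole hippocampus, fewer cells of a type and less RNA per cell cannot be told apart.

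CREB and CREM are related transcription factors that bind cAMP response elements and are known for switching on genes after neuronal activity. Mogs is glucosidase I, which removes the outermost glucose from the glycan that has just been attached to a new protein in the endoplasmic reticulum. This is the first trimming step of N-linked glycosylation, and it opens the way to the calnexin cycle that checks protein folding. Tm7sf2 is a sterol reductase of the same membrane, which acts after Cyp51 in the synthesis of cholesterol. The lamin B receptor Lbr, not analysed here, has the same activity.

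What the probe sets can tell apart limits both genes. The bright Mogs probe set (168274_f_at) carries the suffix by which Affymetrix marks probes shared by a family of like sequences, and the annotation lists no accession for it. The other Mogs probe set (171488_at) has no such suffix. The Tm7sf2 probe set (169465_s_at) has the suffix for probes shared by several transcripts. Of the 11868 probe sets 1091 have the family suffix and 122 the shared one. Signal of a related transcript could not be separated from that of the named gene.

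The promoters of both genes are shown because the mutant mice lack factors that bind a known short motif. Each runs from 250 bases before to 50 bases after the annotated start (RefSeq, GRCm38.p6), on the gene's own strand. Mogs lies at chr6:83115256-83115555 on the + strand and Tm7sf2 at chr19:6067801-6068100 on the - strand. Capitals mark TGACG, the core of a cAMP response element, on either strand.
Mogs: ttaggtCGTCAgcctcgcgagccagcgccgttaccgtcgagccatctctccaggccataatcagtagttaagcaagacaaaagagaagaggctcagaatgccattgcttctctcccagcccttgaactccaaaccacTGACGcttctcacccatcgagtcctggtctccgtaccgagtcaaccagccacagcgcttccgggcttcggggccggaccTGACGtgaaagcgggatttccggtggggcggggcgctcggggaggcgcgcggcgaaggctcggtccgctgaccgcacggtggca
Tm7sf2: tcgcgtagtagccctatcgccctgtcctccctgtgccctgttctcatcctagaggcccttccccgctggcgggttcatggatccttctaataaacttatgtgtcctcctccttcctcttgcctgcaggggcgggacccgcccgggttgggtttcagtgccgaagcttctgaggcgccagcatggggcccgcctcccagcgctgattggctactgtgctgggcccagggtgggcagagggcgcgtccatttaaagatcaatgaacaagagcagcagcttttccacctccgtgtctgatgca

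The Mogs promoter held TGACG 3 times, with the first base of each match at -244, -113 and -34 from the start. The Tm7sf2 promoter held it 0 times. Of 32851 promoters from the same source 20.8% held TGACG at least once and 1.03% at least 3 times. Neither promoter held the full element TGACGTCA, which overlaps TGACG on both strands and occurred in 1.79% of promoters, nor the sterol regulatory letters TCACNCCAC, which occurred in 1.24%. Both promoters were rich in G and C, at 62.3% for Mogs and 60.3% for Tm7sf2 against a median of 52.7% over all promoters. A match describes these letters and no binding.

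Mogs on its bright probe set separated the genotypes more than the treatments. It read 6.73, 5.69 and 6.07 in mutant kainate, 6.17, 5.59 and 6.25 in mutant saline, 8.08, 7.50 and 6.33 in control kainate, and 7.81, 7.46 and 7.36 in control saline (log2 GCRMA values, replicates 1 to 3). After saline every mutant array lay below every control array. After kainate the control array of replicate 3 lay below the mutant array of replicate 1, and the groups overlapped.

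Tm7sf2 also read lower in both mutant groups, with a single low array. It read 6.29, 5.96 and 4.26 in mutant kainate, 5.93, 5.97 and 5.99 in mutant saline, 6.93, 6.65 and 6.21 in control kainate, and 6.63, 6.53 and 6.27 in control saline (log2 GCRMA values, replicates 1 to 3). The mutant saline arrays lay close together and below every control saline array. After kainate the mutant array of replicate 1 lay above the control array of replicate 3, so these groups overlapped too.

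The dim Mogs probe set, with no family suffix, read between 2.42 and 2.60 on all 12 arrays, below the level of log2 4 that a probe set had to reach on 3 arrays to be tested. Its mean was 2.50 ± 0.06 on mutant arrays and 2.45 ± 0.02 on control arrays (SD, n = 6 each). It was not tested, so the Mogs values below rest on the family probe set alone. In all 2 of the 3 probe sets passed the filter, among 3541 of the 11868.

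**Figure D1:**
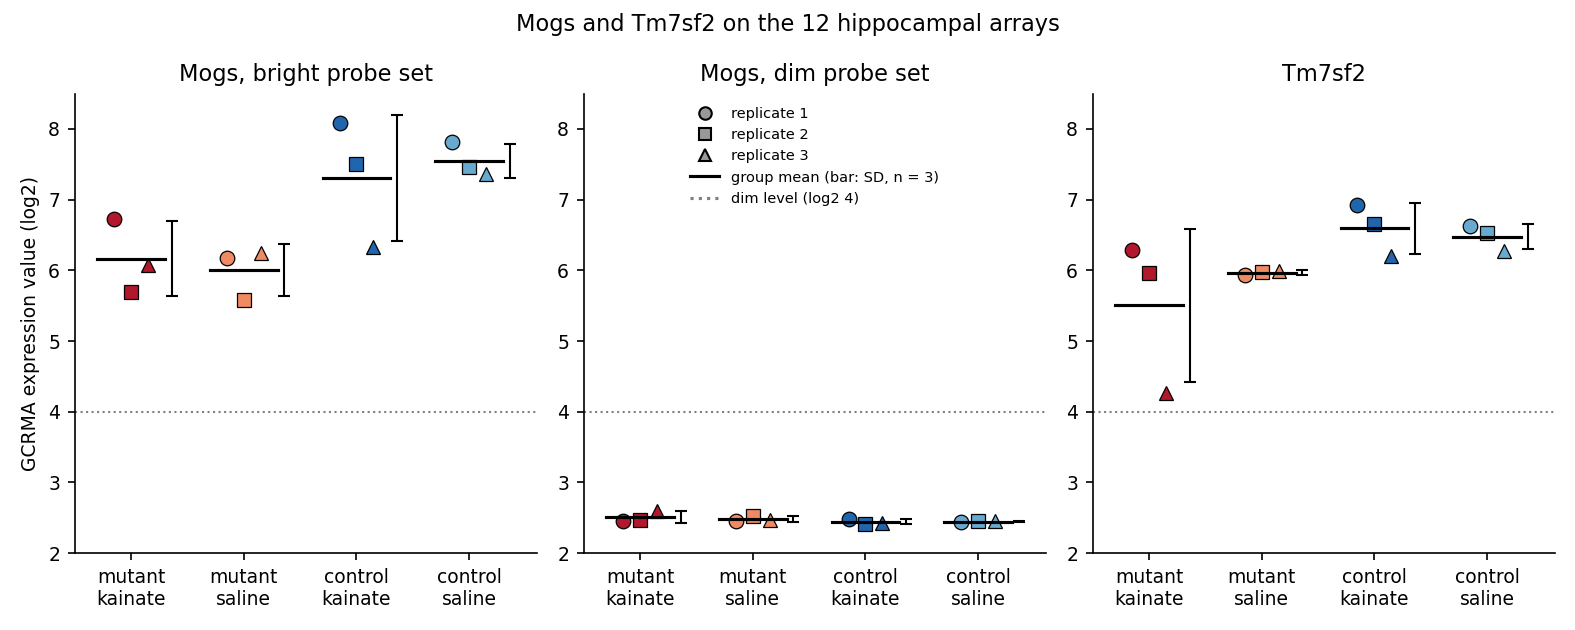
GCRMA expression values (log2) of the 3 probe sets on each of the 12 arrays, by group, with symbols for the replicate number, a line for the group mean and a bar for the SD (n = 3). The bright Mogs probe set sat between 5.59 and 6.73 on mutant arrays and between 6.33 and 8.08 on control arrays, the dim one reached 2.60 at most, and Tm7sf2 had 1 mutant kainate array at 4.26.

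A pair of arrays stood apart from their groups, and differences below are given for all 12 arrays and, where they moved by over 1.5 times or turned in sign, without the pair. Mutant kainate replicate 3 had an SD of 1.51 over the tested probe sets, against 1.68 to 1.79 on the other 11 arrays. The array labelled control kainate replicate 3 read 12.95 for the astrocyte gene Gfap, in the range of the mutant arrays, while control kainate replicates 1 and 2 read 11.51 and 11.53. Replicate 1 arrays also differ as a set from replicates 2 and 3, a batch seen in the data with no label that names it. Creb1 and Crem do not check the genotype labels, since it is not known whether their probes lie in the deleted part: their probe sets above the filter read 4.83 to 5.11 and 4.51 to 4.83 on mutant arrays, against 4.77 to 5.00 and 4.37 to 4.57 on control arrays.

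Mogs departed from its group on the array labelled control kainate replicate 3, and Tm7sf2 on mutant kainate replicate 3. On the first of these arrays Mogs departed by -1.46 from the mean of replicates 1 and 2 of its group. Only 3 of the 321 probe sets within log2 0.5 of that mean, Mogs included, lay as far below, and their median departure was -0.03. On the second, Tm7sf2 departed by -1.86 from the mean of replicates 1 and 2, and there 64 of 436 probe sets of like level (14.7%) lay at least as far below and the median departure was -0.73. Most probe sets of that level (80.5%) were below their group mates on that array. Mogs departed by -0.14 there, and 76.1% of probe sets of its level lay at least as far below.

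With all arrays and both treatments averaged, Mogs was 2.53-fold lower in mutants. Its mean was 6.08 ± 0.41 on mutant arrays and 7.42 ± 0.60 on control arrays (SD, n = 6 each), a log2 difference of -1.34 ± 0.30 (SE). Only 2 of the 3541 probe sets, Mogs included, had a fall that large. By batch, Mogs differed by -1.50 in replicate 1 and by -1.26 in replicates 2 and 3. Without the 2 arrays that stood apart the means were 6.09 ± 0.46 and 7.64 ± 0.30 (SD, n = 5 each), with no overlap, and the difference was -1.56 ± 0.25. Control kainate replicate 3, left out here, held the lowest Mogs value of the control arrays (6.33) and was set apart by Gfap. Gfap itself ran opposite to Mogs (r = -0.846 with the mean of each batch taken out). The larger difference and the lack of overlap are therefore no independent result. In this comparison 0% of probe sets passed an adjusted p under 0.05 as lower and 0% as higher, with 677 of 3541 (19.1%) at an unadjusted p under 0.05, and 0.339% lay wholly below the controls on all 6 mutant arrays, or 1.36% without the 2 arrays.

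Tm7sf2 was 1.74-fold lower in mutants over both treatments. Its mean was 5.73 ± 0.73 on mutant arrays and 6.54 ± 0.26 on control arrays (SD, n = 6 each), a log2 difference of -0.80 ± 0.31 (SE), and 47 of 3541 probe sets (1.33%) fell as far. By batch, Tm7sf2 differed by -0.67 in replicate 1 and by -0.87 in replicates 2 and 3. A single array moved the value by over 1.5 times: without mutant kainate replicate 3 it was -0.49, and without both arrays it was -0.59 ± 0.10, between means of 6.03 ± 0.15 and 6.60 ± 0.24 (SD, n = 5 each). Even then the groups overlapped, the highest mutant array at 6.29 and the lowest control array at 6.27. The arrays left out held the lowest Tm7sf2 value of each genotype, 4.26 on mutant and 6.21 on control arrays.

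**Figure D2:**
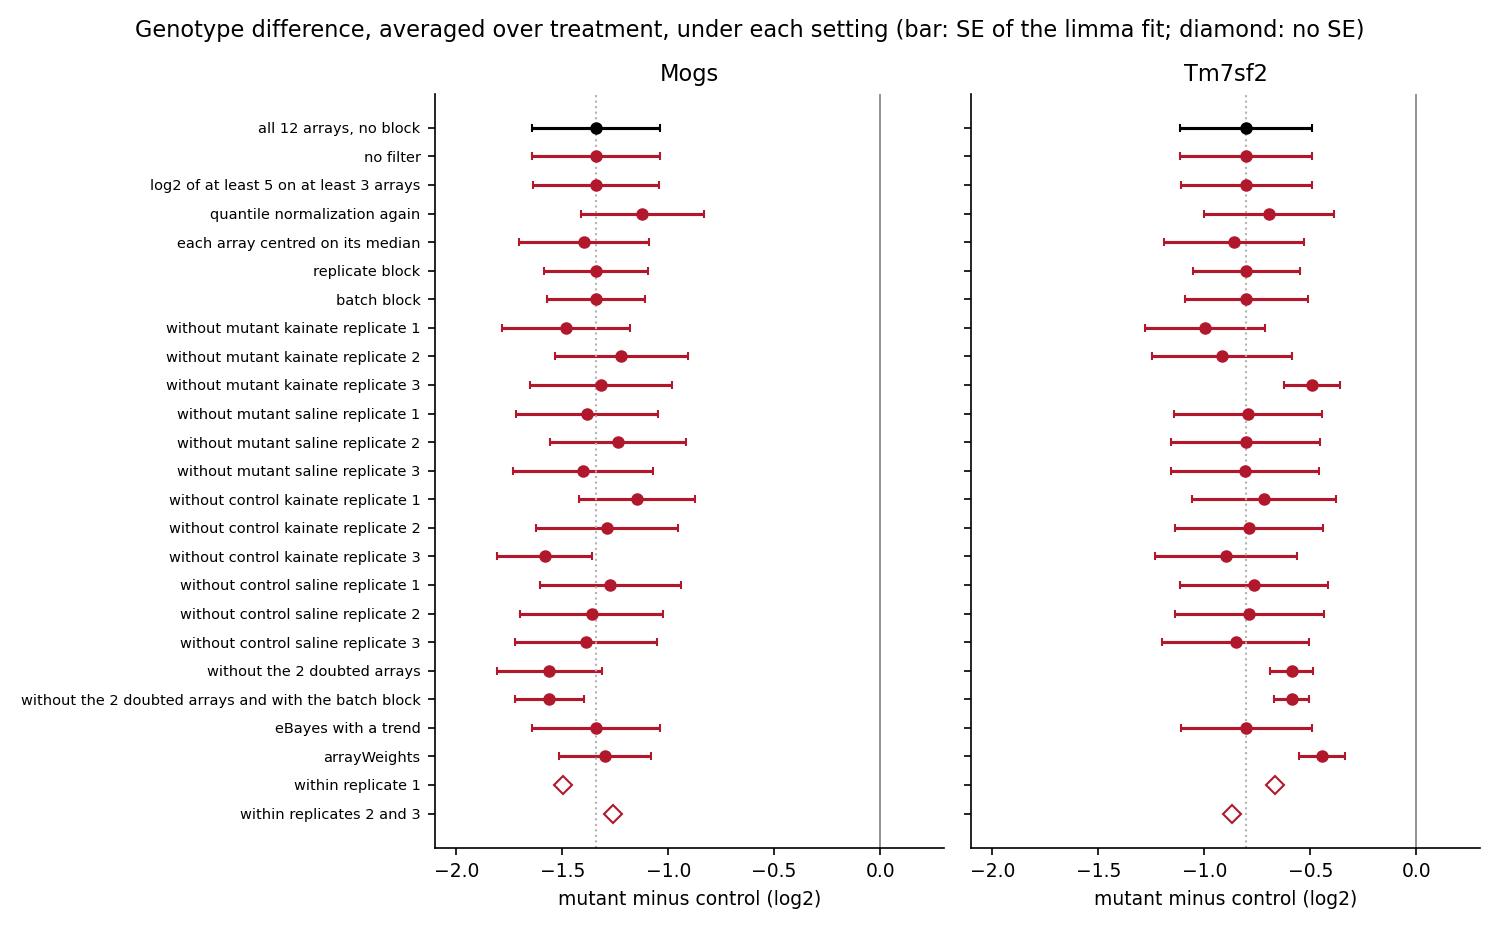
Difference between mutant and control arrays (log2, averaged over treatment) for Mogs and Tm7sf2 with all 12 arrays (black) and under each alternative (red), with the SE of the limma fit as a bar and open diamonds for values within a batch. Both genes stayed below 0 throughout, Mogs at -1.12 or lower and Tm7sf2 at -0.44 or lower.

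After saline, the state without a seizure stimulus, the Mogs difference was the largest fall among the 3541 probe sets. The mean was 6.00 ± 0.36 in mutant saline and 7.54 ± 0.24 in control saline (SD, n = 3 each), a log2 difference of -1.54 ± 0.43 (SE) or 2.91-fold. The batches gave -1.64 for replicate 1 and -1.49 for replicates 2 and 3. For Tm7sf2 the means were 5.97 ± 0.03 and 6.48 ± 0.18 (SD, n = 3 each), a difference of -0.51 ± 0.44 (SE), with -0.69 and -0.42 within the batches. This SE is far above the spread of the 6 saline arrays because the fit shares its error with the kainate arrays, and from the saline arrays alone the difference was -0.51 ± 0.10. Both genes lay lower on all mutant saline arrays with no overlap, as did 5.11% of the probe sets, and 0% passed the threshold in either direction (12.1% at an unadjusted p under 0.05).

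After kainate the genotype differences rested more on single arrays. Mogs had means of 6.16 ± 0.53 in mutant kainate and 7.31 ± 0.89 in control kainate (SD, n = 3 each), a log2 difference of -1.14 ± 0.43 (SE), with -1.35 in replicate 1 and -1.04 in replicates 2 and 3. It was -0.75 without control kainate replicate 1 and -1.58 without the 2 arrays that stood apart. Tm7sf2 had means of 5.50 ± 1.09 and 6.60 ± 0.36 (SD, n = 3 each), a difference of -1.09 ± 0.44 (SE), which was -0.47 without mutant kainate replicate 3 and -0.67 without both arrays. Of all probe sets 3.78% lay lower on every mutant kainate array, neither Mogs nor Tm7sf2 among them, and 0% passed the threshold in either direction (4.72% at an unadjusted p under 0.05).

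With all 12 arrays the kainate differences of both genes, averaged over genotype, were smaller than their errors, and both turned in sign without the 2 arrays that stood apart. Averaged over genotype the difference between kainate and saline was -0.04 ± 0.30 for Mogs and -0.17 ± 0.31 for Tm7sf2 (SE, 6 arrays against 6). The means were 6.74 ± 0.90 after kainate and 6.77 ± 0.89 after saline for Mogs, and 6.05 ± 0.94 and 6.22 ± 0.30 for Tm7sf2 (SD, n = 6 each). Without the 2 arrays the difference was 0.23 ± 0.25 for Mogs and 0.23 ± 0.10 for Tm7sf2 (SE), and without mutant kainate replicate 3 alone it was 0.14 for Tm7sf2. Without control kainate replicate 3 alone it was 0.21 for Mogs. With all 12 arrays the sign differed between the batches for both genes, at 0.41 in replicate 1 and -0.26 in replicates 2 and 3 for Mogs, and at 0.33 and -0.42 for Tm7sf2. Both arrays that stood apart lie in the batch of replicates 2 and 3. With them left out and a batch block the difference was 0.14 ± 0.16 for Mogs and 0.20 ± 0.08 for Tm7sf2 (SE). In the same comparison 0.141% of probe sets passed higher and 0% lower, with 11.3% at an unadjusted p under 0.05.

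Within each genotype the kainate difference also depended on single arrays. For Mogs with all arrays it was 0.16 ± 0.43 in mutant mice and -0.24 ± 0.43 in control mice, and for Tm7sf2 -0.46 ± 0.44 and 0.12 ± 0.44 (SE, 3 arrays against 3). With a block for the batch and the 2 arrays that stood apart left out, Tm7sf2 was 0.13 ± 0.11 in mutants and 0.28 ± 0.11 in controls, and Mogs 0.12 ± 0.23 and 0.16 ± 0.23 (SE). Control kainate replicate 1 moved the Mogs difference in controls to -0.62 when left out, and control kainate replicate 3 to 0.25. The interaction of genotype and kainate was 0.40 ± 0.60 for Mogs and -0.58 ± 0.62 for Tm7sf2, and without the 2 arrays it was -0.043 and -0.15. That of Mogs was -0.088 without control kainate replicate 3 and 0.78 without control kainate replicate 1, and that of Tm7sf2 was 0.039 without mutant kainate replicate 3.

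Over all 12 arrays, the pair that stood apart included, genotype took 67.1% of the variation of Mogs, kainate 0.0517%, their interaction 1.48% and the batch 14.8%. For Tm7sf2 these shares were 38.8%, 1.80%, 5.11% and 11.4%, with 42.8% not assigned to any of them. The unassigned share of Mogs was 16.6%.

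Mogs and Tm7sf2 also varied together over the 12 arrays and over the 6 control arrays, but less over the 6 mutant arrays. Over the 12 arrays the Pearson correlation of Mogs with Tm7sf2 was 0.653 and the Spearman correlation 0.923, a description in which the genotype, the batch and the 2 arrays that stood apart are shared by both values. Since the genotype difference enters both values, the Pearson correlation is also given within each genotype. It was 0.149 over the 6 mutant arrays, which hold the low Tm7sf2 array (Spearman 0.486), and 0.854 over the 6 control arrays. Of all probe sets tested 4.35% correlated with Mogs at least as highly as Tm7sf2 over the 12 arrays. That share was 36.6% in mutants and 2.29% in controls, where the median correlation of all probe sets with Mogs was 0.277. Without the 2 arrays the Pearson correlation was 0.937, and Mogs was then the probe set with a gene symbol most like Tm7sf2.

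**Figure D3:**
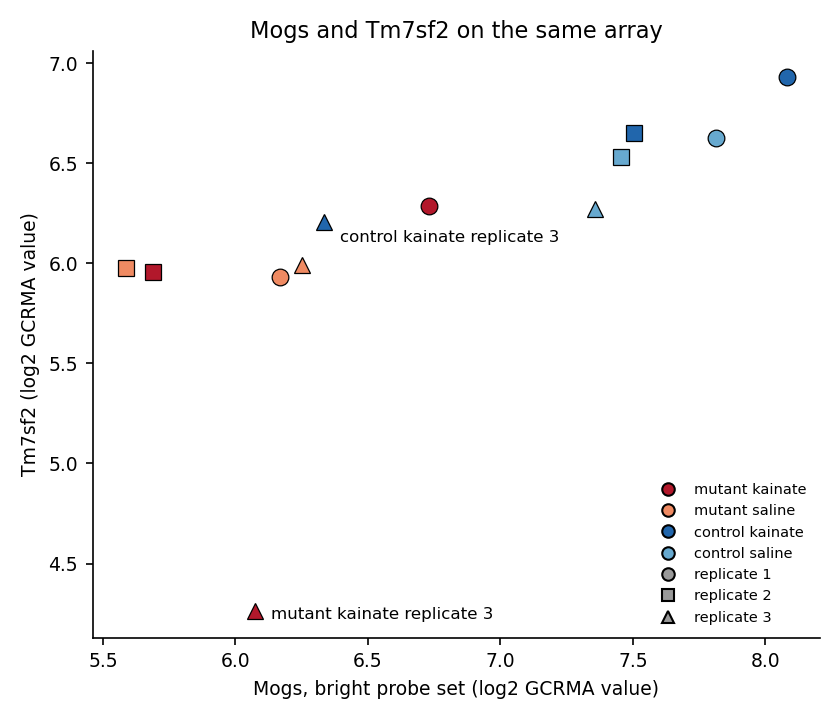
Each point is 1 array, with the log2 GCRMA value of the bright Mogs probe set on the x axis and of Tm7sf2 on the y axis, coloured by group and shaped by replicate number. Mutant kainate replicate 3 lies alone at a Tm7sf2 value of 4.26, and the array labelled control kainate replicate 3 lies among the mutant arrays at 6.33 and 6.21.

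The probe sets that most resembled Mogs over the 12 arrays were those of Anks1b (r = 0.965), Gm2115 (r = 0.959), Ankrd63 (r = 0.929), Sstr4 (r = 0.908) and Slc25a16 (r = 0.897). Anks1b encodes a postsynaptic scaffold protein and Sstr4 a somatostatin receptor. Their own genotype differences were -1.19 to -0.66 over both treatments. The probe sets most opposite to Mogs were those of Ppp1r27 (r = -0.808), Trir (r = -0.780) and Gm550 (r = -0.752). With the mean of each batch taken out they were instead those of Gfap (r = -0.846), Thap2 (r = -0.822) and Atxn1 (r = -0.818). With the 2 arrays left out the first 5 still correlated with Mogs at 0.914 to 0.975.

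Tm7sf2 had other neighbours over the 12 arrays. The 5 probe sets most like it were those of Gabarapl2 (r = 0.969), Cep20 (r = 0.967), Unc80 (r = 0.966), Ppp2ca (r = 0.962) and Sh2d5 (r = 0.961). Gabarapl2 encodes a protein of autophagosome formation, Unc80 a subunit of a sodium leak channel complex, and Ppp2ca the catalytic subunit of a phosphatase. Most opposite were Ttll3 (r = -0.955), 1700056E22Rik (r = -0.945) and Xrcc1 (r = -0.932). Without the 2 arrays the correlations of the first 5 were 0.822 to 0.879, and none of them stayed among the 5 highest. Those were then Mogs (r = 0.937), Krt222 (r = 0.907), Gm2115 (r = 0.903), Masp1 (r = 0.899) and Anks1b (r = 0.894). Gm2115 and Anks1b were also among the probe sets most like Mogs.

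Mogs works on a glycan that other enzymes of the reticulum build and attach, and these were compared next. Of 23 genes for assembly of the glycan on its lipid carrier 6 were on the array and 3 were measured, and all 3 had a negative genotype difference (median -0.10, against -0.01 over all probe sets tested). The measured genes were Nus1, Alg11 and Srd5a3, and 0 of them passed, as did 0% of all probe sets. Srd5a3, the polyprenol reductase that makes dolichol, was -0.092 with all arrays and 0.069 without the 2 that stood apart.

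Nus1, a subunit of the enzyme that makes the dolichol carrier, had the largest difference of them. It read 6.43, 5.62 and 5.52 in mutant kainate, 6.21, 5.83 and 6.35 in mutant saline, 6.72, 7.32 and 6.64 in control kainate, and 6.59, 6.93 and 6.90 in control saline (log2 GCRMA values, replicates 1 to 3). All 6 mutant arrays lay below all 6 control arrays, which 12 of 3541 probe sets (0.339%) did. Its mean was 5.99 ± 0.39 on mutant arrays and 6.85 ± 0.27 on control arrays (SD, n = 6 each), a difference of -0.86 ± 0.19 that did not pass over all probe sets (limma, adjusted p = 0.247, with 0.00982 to 0.485 over the alternatives). It was -0.34 in replicate 1 and -1.12 in replicates 2 and 3, and -0.84 ± 0.20 without the 2 arrays that stood apart.

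In later steps of the pathway the measured genes other than Mogs had smaller differences than Nus1. Of 12 genes of the oligosaccharyltransferase, the complex that attaches the glycan, 3 were measured, with Stt3a, a catalytic subunit, at -0.36 ± 0.38, Tusc3, an accessory subunit, at 0.095 ± 0.15 and its relative Magt1 at -0.19 ± 0.15. A second Magt1 probe set, close to the dim level, was at 0.091 ± 0.040, and the first ran from -0.32 to -0.082 with 1 control saline array left out. Without the 2 arrays that stood apart Stt3a was 0.066 and Tusc3 0.024. Of 18 genes for trimming and the calnexin cycle 4 were measured, Mogs included. The largest of the other 3 was Uggt2, a relative of the folding sensor that puts glucose back, at -0.12 ± 0.08 (limma, adjusted p = 0.392), or -0.056 without control kainate replicate 1. Of 14 genes of later processing in the Golgi 2 were measured, at -0.05 for Man2a2 and 0.12 for St6gal1, and Man2a2 was 0.12 without the 2 arrays. As over all probe sets, 0% of these genes passed. For the 16 listed genes of the unfolded protein response 0 probe sets were matched by gene ID, and they were not analysed here.

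The sterol pathway around Tm7sf2 differed in sign from gene to gene. Of 23 sterol synthesis genes 13 were on the array and 7 were measured, 4 with a positive and 3 with a negative difference (median 0.08, against -0.01 over all probe sets tested), and 0 passed, as did 0% of all probe sets. Tm7sf2 itself had the largest difference of the 7. The next were Nsdhl, which acts in removing methyl groups from the sterol after Tm7sf2, at -0.22 ± 0.16 (limma, adjusted p = 0.449) but -0.068 without mutant kainate replicate 3 and -0.082 without the 2 arrays, and Lss, which closes the sterol rings, at 0.19 ± 0.07 (limma, adjusted p = 0.247). The brain cholesterol hydroxylase gene Cyp46a1 was the 1 measured gene of 18 for sterol regulation, uptake and export, at -0.22 ± 0.17 (limma, adjusted p = 0.465), with -0.34 without mutant saline replicate 1 and -0.13 without mutant kainate replicate 3.

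**Figure D4:**
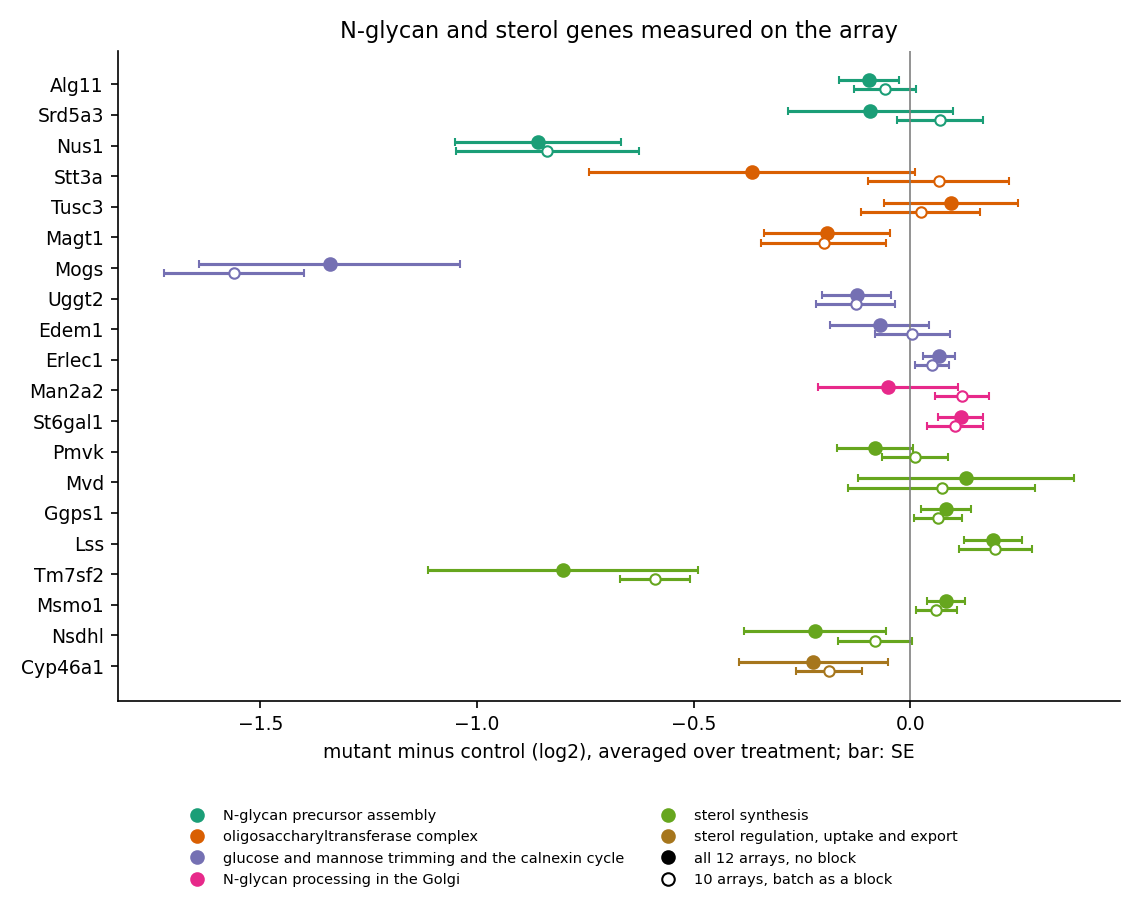
Genotype difference (log2, averaged over treatment) of each measured gene of the N-glycan and sterol lists, with filled points for all 12 arrays, open points for the 10 arrays left without the pair that stood apart in a fit with a batch block, and the SE of the fit as a bar. Mogs, Nus1 and Tm7sf2 lie at -1.34, -0.86 and -0.80, and the other filled points lie between -0.36 and 0.19.

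In the comparison of kainate with saline, averaged over genotype, 0.141% of all probe sets passed higher and 0% lower, and 0 genes of these lists were among them. Mvd, which makes the isoprenoid unit of sterols and dolichol, had the largest difference at 0.73 ± 0.25 (limma, adjusted p = 0.349), with means of 4.86 ± 0.59 after kainate and 4.13 ± 0.09 after saline (SD, n = 6 each). It read near the dim level of log2 4 after saline, and the difference was -0.015 in replicate 1 and 1.10 in replicates 2 and 3. Magt1 was -0.37 ± 0.15 (limma, adjusted p = 0.384) and Nsdhl 0.24 ± 0.16 (limma, adjusted p = 0.632). Without the 2 arrays Nsdhl was 0.41, and without mutant kainate replicate 2 it was 0.097.

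Cell type markers and RNA quality are given by group, and their part in the results on Mogs and Tm7sf2 was not tested. With all 12 arrays 0 of the measured markers passed between genotypes averaged over treatment, as did 0% of all probe sets. Of 11 astrocyte markers 4 were measured (Gfap, Slc1a2, Apoe and Pla2g7), and their summed linear value was 3148 to 8537 in mutant kainate, 4931 to 8266 in mutant saline, 2965 to 8181 in control kainate and 1875 to 3148 in control saline. Gfap makes up most of that sum: of the 4 markers 1 had a positive genotype difference and 3 a negative one (median -0.07), with Slc1a2 at -0.34 ± 0.95, Apoe at -0.07 ± 0.13 and Pla2g7 at -0.07 ± 0.06. The mutant minus control difference of Gfap was 0.94 ± 0.35 with all arrays (limma, adjusted p = 0.247). With a batch block and the 2 arrays left out it was 1.41 ± 0.17 (limma, adjusted p = 0.0208), and in that fit 0.0847% of probe sets passed higher and 0.734% lower. Control kainate replicate 3 was set apart by its own Gfap value of 12.95. Mutant kainate replicate 3, also left out, read the lowest Gfap of the mutant arrays at 11.55. The second fit is therefore no independent test of Gfap. Of 11 microglial markers 3 were measured, with a summed linear value of 549 to 1513 in mutant kainate, 1109 to 1336 in mutant saline, 906 to 1624 in control kainate and 753 to 867 in control saline. Laptm5 was 0.25 ± 0.28 in mutants minus controls with all arrays (limma, adjusted p = 0.609), and 0.64 ± 0.10 with a batch block and the 2 arrays left out (limma, adjusted p = 0.0488). Its probe set has the family suffix, and the arrays left out held its highest and lowest values, 10.44 and 8.67. The other microglial markers measured were Cx3cr1 at 0.01 ± 0.37 and P2ry12 at 0.04 ± 0.07 with all arrays. In the second fit they were 0.16 ± 0.11 and 0.10 ± 0.06 (limma, adjusted p = 0.463 and 0.408). Of 10 oligodendrocyte markers 2 were measured, with a summed linear value of 148 to 593 in mutant kainate, 595 to 724 in mutant saline, 619 to 670 in control kainate and 642 to 727 in control saline. Ugt8a read 6.80 on mutant kainate replicate 3 and 8.89 to 9.38 on the other 11 arrays. Of 12 neuronal markers 1 was measured, the vesicular glutamate transporter gene Slc17a7, at 6.99 to 8.40 in mutant kainate, 7.92 to 8.37 in mutant saline, 8.11 to 8.26 in control kainate and 7.89 to 7.95 in control saline. The Slc17a7 probe set has the family suffix, as have those of Stt3a, Nsdhl, Cep20 and Sh2d5 above. Between the 3' and 5' control probe sets for actin, which follow RNA quality, the gap was 1.61 to 2.44 in mutant kainate, 1.74 to 2.00 in mutant saline, 1.77 to 2.27 in control kainate and 1.74 to 1.92 in control saline (log2). These ranges overlapped between all groups, as did those of the Gapdh gap, at -0.15 to 0.32 over all arrays. Within replicates 2 and 3 the actin gap was 2.20 to 2.44 on kainate arrays and 1.74 to 1.83 on saline arrays, with no overlap. In replicate 1 it was 1.61 and 1.77 after kainate and 1.92 and 2.00 after saline. Mutant kainate replicate 3, with the low Tm7sf2 value, had the widest actin gap, 2.44. GCRMA gives no value of 0, so no marker could be called absent.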

How the data were processed

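Per the submitters' processing notes, the authors made log2 expression values with GCRMA in R 2.4.1, and the deposited table was used as it is. The GCRMA version is not given in the sources used here. Of 11934 probe sets 66 array controls were left out, and 3541 of the other 11868 reached log2 4 on at least 3 arrays. Symbols came from the platform annotation (7717 probe sets with 1 symbol, 150 with several, 4001 with none), matched by gene ID to RefSeq. All 3541 were fitted in R 4.3.3 with limma 3.58.1 (lmFit and eBayes), modelling the 4 group means, and p-values were adjusted over all of them by Benjamini-Hochberg (threshold 0.05). The fit was tested on simulated data. The number of arrays limits precision.

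The members, lists and tests were chosen with earlier results of these data known. Named beyond Mogs and Tm7sf2 are up to 4 genes per list with the largest differences and, per member, the 5 probe sets of highest and 3 of lowest correlation. Deviations from the group means of same-numbered arrays correlated at 0.190 to 0.578 between genotypes after kainate and 0.470 to 0.855 after saline. Between treatments they correlated at 0.383 to 0.627 in controls and -0.0779 to 0.479 in mutants. Only same-numbered arrays were compared, and replicate 1 differs as a batch, so these values cannot show whether numbers paired the arrays. Alternatives changed the filter, the normalization, the weights, the block and the arrays.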

Additional observations from a re-analysis of the deposited data

Results flagged for a closer look

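Tm7sf2 on mutant kainate replicate 3 read 4.26, far below the other 5 mutant arrays and the other 5 kainate arrays. The dim Mogs probe set was also flagged, at 2.60 on mutant kainate replicate 3 among the 6 kainate arrays and at 2.53 on mutant saline replicate 2 among the 6 saline arrays, both below the level of log2 4. Arrays were looked at by genotype and by treatment, since groups of 3 are too small, for 12 groupings in all, and chance flags about 5% of them.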

How the results depend on the processing

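Of the alternative values of Mogs and Tm7sf2 in the 7 comparisons, 335 lay within 1 SD between replicates of the value reported, and the rest, all given here, moved further, with the cause not tested. Leaving out each array in turn gave Tm7sf2 a genotype difference after kainate of -1.49 to -0.47, a kainate difference in mutants of -0.86 to 0.16 and an interaction of -0.97 to 0.039, the last of each without mutant kainate replicate 3. The kainate difference of Tm7sf2 in mutants was 0.16 without the 2 arrays that stood apart, 0.13 with a batch block too and 0.36 in replicate 1, where the interaction was 0.054. Array weights gave Tm7sf2 -0.51 between genotypes after kainate and Mogs -0.43 for kainate in mutants, but their estimation stopped before converging and gave weights of 0.0567 to 28.8. Stt3a between genotypes was 0.066 without the 2 arrays, with or without the batch block, and 0.064 with array weights. Nsdhl between genotypes was 0.00055 after renewed quantile normalization and 0.046 with array weights, and Mvd after kainate was -0.015 in replicate 1. The replicate block left each difference of Mogs and Tm7sf2 as it was, with an SE of 0.24 for Mogs and 0.25 for Tm7sf2 between genotypes. The number of probe sets past the threshold between genotypes was 0 with all arrays, 0 to 2 with 1 array left out, 5 without the 2 arrays, 29 with the batch block too and 938 with array weights. For kainate it was 5, 5 to 56, 9, 20 and 1018. Between genotypes after saline it was 0, and 6 with the 2 arrays left out and the batch block. After kainate it was 0, up to 15 with 1 array left out, 4 with the 2 arrays left out and the batch block, and 477 with array weights.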
